A study of Homo sapiens with 6 samples.

Results

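The 10 genes described here encode proteoglycans and hyaluronan proteins of the endothelial glycocalyx. They were taken by gene symbol from the table of 19755 protein-coding genes, and all 10 were found. They are the syndecans SDC1, SDC2, SDC3 and SDC4, the glypican GPC1, the secreted proteoglycans ESM1 and VCAN, the hyaluronan synthase HAS2, the hyaluronan receptor CD44 and the hyaluronidase HYAL2. RNA-seq was run on 3 control libraries and on 3 libraries from cells exposed for 12 h to 1000 ng/ml of lipopolysaccharide (LPS, a cell wall component of Gram-negative bacteria). The cells are labelled EA.hy926, an established hybrid of umbilical vein endothelium and the lung carcinoma line A549, while the titles also speak of umbilical vein cells, so their identity rests on labels that differ. Controls carry a genotype label of wild type and LPS libraries one of LPS-induced, and no genetic change or separate vehicle is named for either group. The treatment label reads sepsis for all 6, so the groups rest on the titles and the genotype label. The labels do not tell whether replicates are separate cultures, and each p-value therefore reflects library-to-library spread that could be technical.

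The glycocalyx is the sugar-rich coat on the blood-facing side of endothelium. Core proteins such as syndecans, which span the membrane, and glypicans, which hold a lipid anchor, carry long heparan sulfate chains, and syndecans can carry chondroitin sulfate as well. Hyaluronan is a sugar chain without a core protein that is made at the plasma membrane and held by CD44 and by versican. Shedding of syndecan ectodomains and cleavage of heparan sulfate and hyaluronan are well known in sepsis. These are events of the protein and sugar that mRNA levels do not measure.

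ESM1 had the largest difference of the 10 genes between LPS and control libraries, and SDC2, SDC3 and GPC1 also had all LPS values above all control values, by smaller amounts. SDC4, VCAN, HAS2, CD44, HYAL2 and SDC1 had values that overlapped between the groups. None of the 10 passed the adjusted threshold. All 10 reached the level for testing, a mean of 0.5 FPKM (fragments per kilobase of transcript, scaled to the mapped fragments of the library), among 12068 tested protein-coding genes. By limma on log2(FPKM + 0.5), 0 of 10 had a Benjamini-Hochberg adjusted p under 0.05, against 0.058% of all tested genes. ESM1 and GPC1, 2 of 10, had an unadjusted p under 0.05, both higher with LPS, against 10.4% of tested genes in either direction and 5.13% higher. GPC1 kept its unadjusted p under 0.05 when LPS 2 was left out but not when any one of the other 5 libraries was. The groups did not overlap for 4 of 10, all with LPS above, against 8.68% of tested genes with LPS above, 8.73% with LPS below and 17.4% in all. The median log2 change over the 10 was 0.19, against −0.01 over all tested genes, and 8 of the 10 log2 changes were positive, against 47.8% of tested genes.

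**Figure D1:**
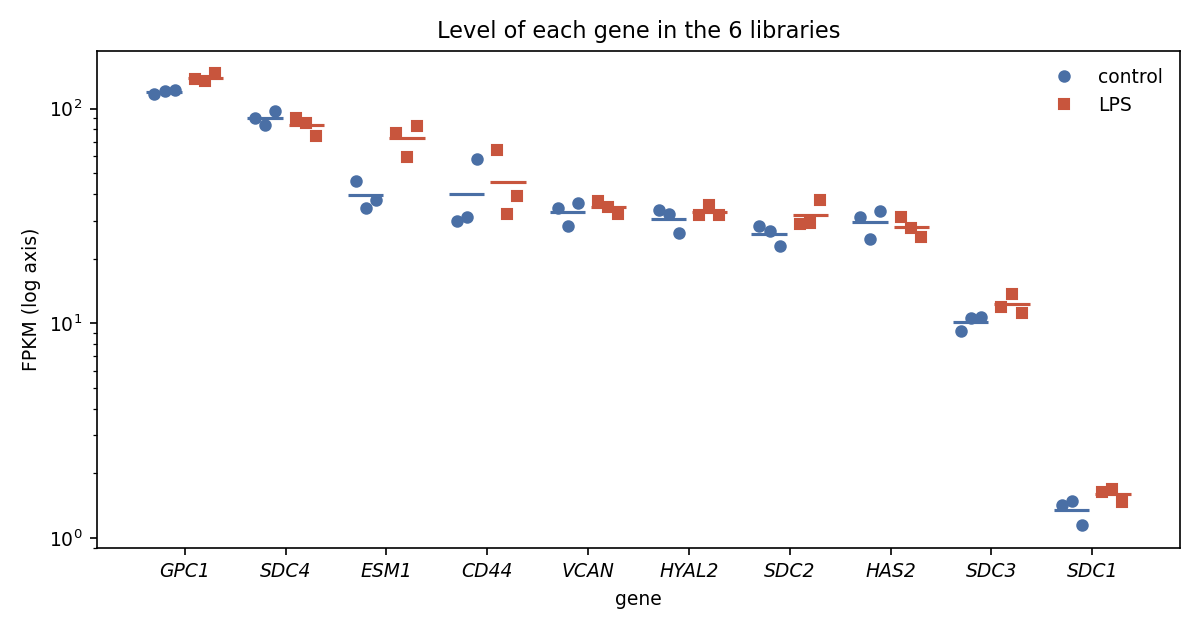
FPKM (log axis) of the 10 genes in the 3 control (blue circles) and 3 LPS (red squares) libraries, with group means as lines, ordered by mean level. The ESM1 squares, from 59.6 to 83.2 FPKM, lie above its circles, from 34.4 to 46.2 FPKM, while the CD44 values of both groups spread over the same range.

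The libraries were similar in summed FPKM and in the number of genes at or above 1 FPKM. FPKM is already scaled to mapped fragments, so its sum does not measure library size. Coding genes summed to between 256047 and 264878 FPKM per library, with 11078 to 11179 genes at or above 1 FPKM, and read depth cannot be recovered from these values. The median log2 change of 14 LPS and interferon response genes was 1.42, with 12 above 0, and 2 passed the adjusted threshold: ISG15, a ubiquitin-like modifier, and MX1, an interferon-induced GTPase (limma adjusted p = 0.0344 for each). Neither was called without the filter on low values, with replicate number as a block, or when control 2, LPS 2 or LPS 3 was left out. Of the 14, 10 had all LPS values above all controls, against 8.68% of all tested genes. VCAM1 (log2 change −0.66) and IL6 (−0.32) had all LPS values below all controls, against 8.73% of all tested genes. NFKBIA (0.13) and CXCL8 (0.28) overlapped between the groups. All 12 endothelial markers were tested, and 11 had a positive log2 change (median 0.24), against 47.8% of all tested genes. Their summed level was 394 to 519 FPKM in control and 479 to 618 FPKM in LPS libraries. In 5 of the 12 all LPS values lay above all controls, against 8.68% of all tested genes. These were CLDN5 (log2 change 0.87, limma adjusted p = 0.197), ROBO4 (0.52), TEK (0.50), ERG (0.22) and PECAM1 (0.20). CD34 alone had a negative log2 change (−0.32), with overlap. Of 12 epithelial and A549 markers, 6 were tested and 5 of those had a negative log2 change, with summed levels of 137 to 147 FPKM in control and 98.2 to 122 FPKM in LPS libraries. In those 5 (KRT8, KRT18, KRT19, CPS1 and AKR1C1) all LPS values lay below all controls, against 8.73% of all tested genes. KRT18, the most abundant, stood at 58.9 ± 5.88 and 41.4 ± 9.04 FPKM, and KRT19 at 34.0 ± 1.23 and 23.1 ± 1.93 FPKM. KRT7 went the other way without overlap, at 17.0 ± 0.935 and 23.8 ± 7.54 FPKM. NKX2-1, which marks lung epithelium, was listed at 0 in all libraries, and CDH1 and EPCAM averaged under 0.05 FPKM in each group. Fibroblast and smooth muscle markers summed to 3565 to 4008 and 3537 to 3954 FPKM in control and LPS libraries. Most of that sum was collagens, with COL1A1 alone at 1460 FPKM on average, although the labels give an endothelial line. Other means over the 6 libraries were ACTA2 126, PDGFRB 79.7, THY1 71.98, DCN 46.7, PDGFRA 27.2, LUM 17.2 and CNN1 2.75 FPKM. MYH11 and DES were under the level for testing. Endothelial markers had means such as VWF 135, CDH5 84.5, PECAM1 59.6 and TEK 6.78 FPKM. PDGFRB, THY1 and DCN thus stood at levels of endothelial markers. Which cells gave the mRNA of the 10 genes was not tested. Of the fibroblast and smooth muscle markers 10 were tested, 4 with a positive and 6 with a negative log2 change (median −0.16). THY1 had all LPS values above the controls (log2 change 0.40), and PDGFRA (−0.55), LUM (−0.72) and COL3A1 (−0.30) all below. The shares of all tested genes were 8.68% above and 8.73% below. Of 10 leukocyte markers 2 were tested, and the summed level of the list was 7.94 to 13.5 FPKM in control and 12.3 to 17.2 FPKM in LPS libraries. LAPTM5 stood at 6.22, 5.41 and 3.84 FPKM in controls and 7.91, 7.33 and 10.4 FPKM with LPS, without overlap (log2 change 0.68, limma adjusted p = 0.336). CD68 stood at 3.70 to 7.61 and 4.30 to 6.45 FPKM, and the defining markers PTPRC and CD3E were listed at 0 throughout. The part of these marker differences in the results below was not tested, and in bulk RNA fewer cells of a type and less RNA per cell cannot be told apart.

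By mean level over the 6 libraries the order was GPC1 (129 FPKM), SDC4 (87.0), ESM1 (56.3), CD44 (42.5), VCAN (33.9), HYAL2 (31.9), SDC2 (28.98), HAS2 (28.9), SDC3 (11.2) and SDC1 (1.47 FPKM). GPC1 lay above SDC4 in every library. SDC3 lay below the 8 more abundant genes and SDC1 below SDC3 in every library. Between these, the order is fixed only in part. SDC4 lay above CD44, VCAN, HYAL2, SDC2 and HAS2 in every library, and ESM1 above VCAN, HYAL2, SDC2 and HAS2. The range of SDC4 overlapped that of ESM1, which exceeded it in LPS 3 (83.2 against 74.6 FPKM). In controls the mean of CD44 (39.8 FPKM) was close to that of ESM1 (39.4 FPKM), whereas with LPS ESM1 (73.3 FPKM) stood above CD44 (45.3 FPKM). The ranges of CD44, VCAN, HYAL2, SDC2 and HAS2 also overlapped. On the scale of all tested genes, GPC1 was at percentile 97.8 and SDC4 at 96.5, whereas SDC1, the syndecan measured most often as a shed marker in plasma, was at percentile 12.6.

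The gene-level differences are shown beside the sequences at which 2 of the genes are spliced, since their transcripts differ there. CD44 lies on chromosome 11 from 35138870 to 35232402 (GRCh38, plus strand). Its standard form, CD44-201, joins constant exon 5 straight to constant exon 6 of 9 exons. CD44-209 instead enters 3 variable exons, 396 bases in all, that lie within the 24786-base intron. The VCAN gene lies on chromosome 5 from 83471618 to 83582303 (plus strand). VCAN-201 joins exon 6 to exon 7, which encodes the GAG-alpha attachment region over 2961 bases (83519349 to 83522309). VCAN-203 skips it and joins exon 6 to the GAG-beta exon of 5262 bases (83537007 to 83542268), which VCAN-201 holds as exon 8. In the sequences, from GENCODE 29 transcripts, 24 bases of the exon before the junction are in lower case and the 24 bases after it in capitals.
CD44-201: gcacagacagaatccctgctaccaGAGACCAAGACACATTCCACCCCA
CD44-209: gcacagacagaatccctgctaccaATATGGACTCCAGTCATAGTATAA
VCAN-201: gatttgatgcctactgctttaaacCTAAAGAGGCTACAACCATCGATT
VCAN-203: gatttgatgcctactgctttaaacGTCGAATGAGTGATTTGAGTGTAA

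The 4 syndecans are the transmembrane core proteins, with short cytoplasmic tails that bind scaffold and cytoskeletal proteins. SDC4, found at focal adhesions, stood at 90.8, 83.6 and 97.6 FPKM in controls 1 to 3 and at 90.0, 85.7 and 74.6 FPKM in LPS 1 to 3. LPS 3 was the lowest of the 6, and the groups overlapped (log2 change −0.12, SE 0.11, limma adjusted p = 0.740; 95% interval −0.37 to 0.13). Without LPS 3 the log2 change was −0.043 and without control 3 −0.067. SDC2, which is common on mesenchymal and endothelial cells, stood at 28.4, 27.0 and 22.9 FPKM in controls and 28.9, 29.2 and 37.4 FPKM with LPS. Its LPS values all lay above the controls, but LPS 1 exceeded control 1 by little. The log2 change of SDC2 was 0.28 (SE 0.14, limma adjusted p = 0.530, 95% interval −0.05 to 0.60), and without LPS 3, its highest library, it was 0.16.

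SDC3, best known from the nervous system, stood at 9.23, 10.6 and 10.7 FPKM in controls, then 12.0, 13.6 and 11.1 FPKM with LPS. The groups did not overlap (log2 change 0.25, SE 0.12, limma adjusted p = 0.520; 95% interval −0.03 to 0.54). SDC3 lies on chromosome 1 from 30869466 to 30908758 and SDC1 on chromosome 2 from 20200797 to 20225433, both on the minus strand. SDC1, the main epithelial and plasma cell syndecan, was near the lower limit of the tested range, at 1.42, 1.49 and 1.14 FPKM in controls and 1.63, 1.69 and 1.47 FPKM with LPS. The groups overlapped by a narrow margin, at control 2 and LPS 3 (log2 change 0.18, SE 0.15, limma adjusted p = 0.707), and without control 3 the log2 change was 0.10.

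Summed over the family, syndecan mRNA stood at 128 ± 5.00 FPKM in controls and 129 ± 4.04 FPKM with LPS (SD, n = 3 each; exact permutation test, two-sided, p = 0.7). Of that sum, SDC4 made up 70.0%, 68.1% and 73.7% in controls and 67.9%, 65.8% and 59.8% in LPS libraries. SDC3 made up 7.11%, 8.63% and 8.09% in controls and 9.02%, 10.5% and 8.93% with LPS. For both shares the groups did not overlap, and the exact permutation p of 0.1 is the smallest that 3 libraries against 3 can give. Over the 34 sums, shares and ratios computed in this way, no Benjamini-Hochberg adjusted exact p was below 0.425.

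GPC1, the main endothelial glypican and the most abundant of the 10, lies on chromosome 2 from 240435663 to 240468076 (plus strand). It stood at 117, 120.4 and 122 FPKM in controls, then 137, 134 and 146 FPKM with LPS. The controls lay close together and all LPS values lay above them. The difference was small, a log2 change of 0.22 (SE 0.08, limma adjusted p = 0.439; 95% interval 0.02 to 0.41). A single transcript, GPC1-201, carried 96.9% to 98.6% of the gene's FPKM in each library. AC110619.1, a noncoding gene on the opposite strand, overlaps GPC1 and was listed at 13.9 to 18.1 FPKM in controls and 15.7 to 20.3 FPKM with LPS. The sources used here do not state whether strand was used in counting, and if it was not, reads of the pair cannot be told apart. GPC1 and the syndecans together stood at 248 ± 5.56 FPKM in controls and 268 ± 3.33 FPKM with LPS (SD, n = 3 each), without overlap (exact permutation p = 0.1, the smallest possible). The GPC1 to SDC4 ratio was 1.29, 1.44 and 1.25 in controls and 1.53, 1.57 and 1.96 with LPS, also without overlap.

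ESM1 (endocan) is a small secreted proteoglycan with a single dermatan sulfate chain, made by activated endothelium and tip cells and measured in plasma in sepsis. It stood at 46.2, 34.4 and 37.6 FPKM in controls, then 77.0, 59.6 and 83.2 FPKM with LPS. Every LPS value exceeded every control value, and the ratio of the group means was 1.86. Its log2 change was 0.88 (SE 0.16, 95% interval 0.51 to 1.26), with a limma adjusted p of 0.173, so ESM1 did not pass the threshold. It ranked 45 by p among the 12068 tested genes. The ESM1 to VCAN ratio was 1.34, 1.21 and 1.04 in controls and 2.08, 1.72 and 2.57 with LPS (exact permutation p = 0.1, the smallest possible).

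The difference in ESM1 lay in its main transcript, of 3 exons. ESM1-202 stood at 43.6, 31.9 and 36.0 FPKM in controls, then 73.0, 56.8 and 79.8 FPKM with LPS (log2 change 0.90, SE 0.18, limma adjusted p over all tested transcripts 0.377). This transcript carried 92.7% to 96.0% of ESM1 FPKM in each library. ESM1-201, with 2 exons, ranged from 0.152 to 1.49 FPKM. In its deviations from the mean over the 6 libraries, ESM1 was nearest to MN1, ZNF469, HHIP, AURKB and ITGB3, with root mean square differences of 0.107 to 0.116 on the log2 scale. In each of these 5 genes all LPS values lay above all controls, as in ESM1, with log2 changes such as 0.68 for ITGB3, an integrin subunit, and 0.81 for AURKB, a mitotic kinase. These genes were picked for likeness to ESM1 over all 6 libraries, its group difference included, so the shared separation follows largely from the choice. This likeness is a description over 6 libraries among 12068 genes.

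ESM1 lies on chromosome 5 from 54977867 to 55022671 on the minus strand, and SDC4 on chromosome 20 from 45325288 to 45348424, also on the minus strand. Their upstream sequences are printed because ESM1 had the largest difference and because SDC4, the leading syndecan, held a match to the kappaB consensus, the site of the LPS-activated factor NF-kappaB. Promoters were taken from RefSeq tables on GRCh38.p14, which held 8 of the 10 genes, with 9 start sites. Both strands of each window, from 250 bases before the start to 50 after it, were searched for the kappaB consensus, the AP-1 site (TGANTCA), the core promoter box with the letters TATAAA, and the hypoxia element core (ACGTG). The 150 bases before each start site follow, with matches in capitals.
ESM1, chr5:54985594-54985743, minus strand: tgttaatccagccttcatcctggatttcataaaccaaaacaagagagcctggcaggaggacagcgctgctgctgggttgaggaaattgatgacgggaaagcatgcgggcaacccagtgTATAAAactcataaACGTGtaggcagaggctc
SDC4, chr20:45348425-45348574, minus strand: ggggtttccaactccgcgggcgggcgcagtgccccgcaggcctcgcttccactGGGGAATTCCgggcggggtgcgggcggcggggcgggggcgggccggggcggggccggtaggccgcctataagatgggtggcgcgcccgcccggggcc

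The ESM1 window held TATAAA 32 bases and ACGTG 18 bases before the start. The SDC4 window held the kappaB match GGGGAATTCC 97 bases before it. A kappaB match stood also in 1 of the 2 SDC1 windows, and an ACGTG match in that of CD44, while none of the 9 windows held the AP-1 letters. Of 35116 promoter windows of the same length, 11.3% held the kappaB consensus, 11.5% TATAAA, 7.71% TGANTCA and 21.4% ACGTG. A match describes letters only, not a bound site.

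VCAN encodes versican, a large chondroitin sulfate proteoglycan that binds hyaluronan. The gene stood at 34.4, 28.5 and 36.3 FPKM in controls and 37.0, 34.7 and 32.4 FPKM with LPS. The groups overlapped (log2 change 0.07, SE 0.12, limma adjusted p = 0.860; 95% interval −0.20 to 0.35), and without control 2 the sign turned (−0.028). It was 0.027 without LPS 1, 0.14 without control 3 and 0.12 without LPS 3. VCAN-201, the V0 form with both attachment exons shown above, stood at 14.0, 11.6 and 11.4 FPKM in controls and 11.9, 11.04 and 10.9 FPKM with LPS. VCAN-203, the V1 form with the GAG-beta exon alone, stood at 2.22, 2.64 and 2.34 FPKM and at 2.32, 1.99 and 2.23 FPKM. VCAN-201 was thus listed above VCAN-203 in every library, and neither form passed the test (limma adjusted p = 0.848 and 0.895). VCAN-209, described below, also holds the GAG-beta exon without GAG-alpha. The order of V0 and V1 therefore rests on how fragments were divided between transcripts, which the sources used here do not state. VCAN-202, the V2 form with the GAG-alpha exon alone, was listed at 1.70 FPKM in LPS 3 and at 0 in the other 5 libraries.

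Noncoding transcripts took 15.9 FPKM of VCAN in controls and 16.9 FPKM with LPS on average. VCAN-209, a noncoding transcript that holds the whole GAG-beta exon, stood at 6.88, 5.18 and 14.7 FPKM in controls, then 11.6, 12.1 and 1.45 FPKM with LPS. LPS 3 was thus low for VCAN-209 and also high for VCAN-211, a short coding transcript, at 6.69 FPKM against 0.982 to 3.01 FPKM elsewhere. VCAN-AS1, on the opposite strand, was listed at 2.79 to 3.83 FPKM.

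HAS2 makes the long hyaluronan chains of the endothelial surface. It stood at 31.2, 24.7 and 33.3 FPKM in controls, then 31.3, 27.7 and 25.3 FPKM with LPS, with overlap (log2 change −0.07, SE 0.14, limma adjusted p = 0.889; 95% interval −0.40 to 0.25), and without control 3 the sign turned (0.011). Leaving out any other library but LPS 2 also moved it by over 1.5 times, between −0.20 without control 2 and −0.0024 without LPS 3. Part of that value was listed under a transcript other than the coding one. An assembled transcript named HAS2-OT1 took 13.3%, 10.3% and 16.5% of HAS2 FPKM in controls and 10.2%, 19.3% and 6.41% with LPS. It lies from 121639892 to 121641440, within the span of the coding transcript (121612116 to 121641440). Its share therefore rests on how fragments were divided between them, which the sources used here do not state. The coding transcript HAS2-201 alone stood at 27.1, 22.1 and 27.8 FPKM in controls and 28.1, 22.4 and 23.7 FPKM with LPS. The antisense HAS2-AS1 was listed at 1.37 to 1.56 FPKM in controls and 0.976 to 1.36 FPKM with LPS.

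HYAL2, an enzyme tethered to the cell surface that cuts long hyaluronan, lies on chromosome 3 from 50317790 to 50322782 (minus strand). It stood at 33.6, 32.3 and 26.4 FPKM in controls, then 32.0, 35.5 and 31.8 FPKM with LPS, with overlap (log2 change 0.11, SE 0.12, limma adjusted p = 0.783; 95% interval −0.17 to 0.39). The HYAL2 log2 change was 0.0056 without control 3, 0.059 without LPS 2 and 0.18 without control 1. HYAL2-201 and HYAL2-207, which differ in their exonic length, carried most of it, at 14.7 and 13.8 FPKM on average. HYAL2-207 alone stood at 13.7, 12.1 and 13.1 FPKM in controls and 15.6, 14.2 and 14.2 FPKM with LPS, without overlap (log2 change 0.17, limma adjusted p = 0.819). The gene overlaps TUSC2 on the same strand, listed at 9.57 to 12.1 FPKM. The HAS2 to HYAL2 ratio was 0.985 ± 0.253 in controls and 0.851 ± 0.110 with LPS (SD, n = 3 each; exact permutation p = 0.7).

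**Figure D2:**
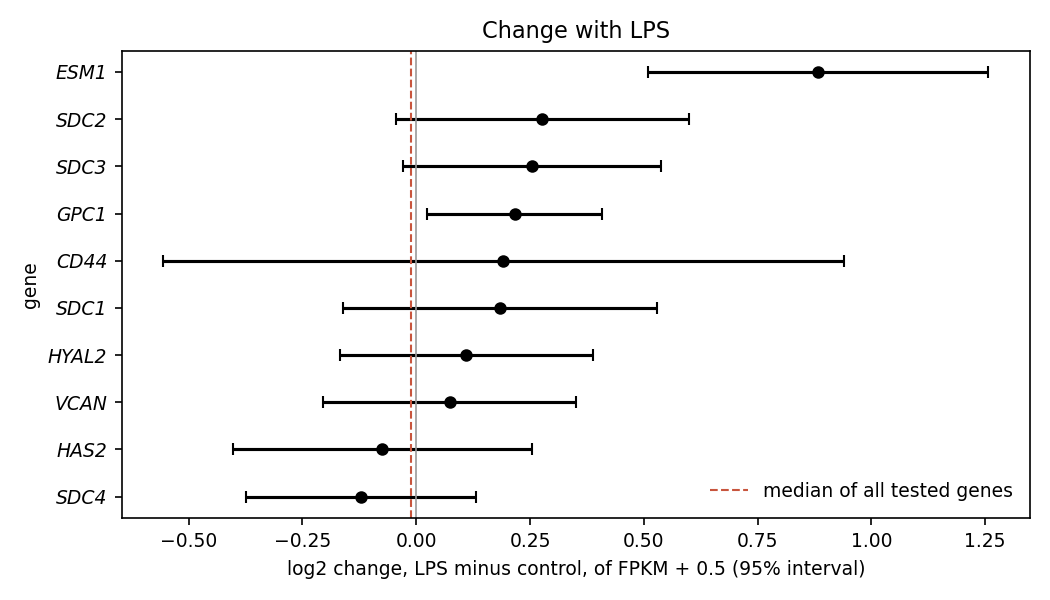
Log2 change of FPKM + 0.5, LPS minus control, for the 10 genes with 95% intervals from limma (n = 3 libraries per group); the dashed line is the median of all tested genes. The intervals of ESM1 (0.51 to 1.26) and GPC1 (0.02 to 0.41) lie above 0, and the interval of CD44 is the widest, from −0.56 to 0.94.

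CD44, the main hyaluronan receptor, varied more between libraries than between groups in its listed FPKM. It stood at 29.96, 31.1 and 58.3 FPKM in controls, then 64.4, 32.3 and 39.2 FPKM with LPS. Control 3 and LPS 1 were high and the other 4 libraries lay between 29.96 and 39.2 FPKM (log2 change 0.19, SE 0.32, limma adjusted p = 0.869; 95% interval −0.56 to 0.94). Leaving out any one library but LPS 3 moved the log2 change by over 1.5 times: it was −0.09 without LPS 1, 0.024 and 0.051 without controls 1 and 2, 0.40 without LPS 2 and 0.50 without control 3.

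The high CD44 values of control 3 and LPS 1 came from different transcripts. The standard form CD44-201 stood at 12.5, 6.50 and 2.42 FPKM in controls, then 55.1, 25.1 and 5.11 FPKM with LPS. It made up 85.6% of CD44 FPKM in LPS 1 and 4.16% in control 3. In control 3 the largest part, 19.5 FPKM, was CD44-232, a noncoding transcript with a retained intron, which stood at 1.64 to 9.76 FPKM in the other libraries. The listed gene value is the sum of the transcript values, to within 1.7e-05 FPKM. FPKM is per kilobase, so a fragment counts for more on CD44-232 (877 bases) than on CD44-201 (4589 bases). The high gene value of control 3 therefore depends on how fragments were divided between transcripts. CD44-209, which holds the 3 variable exons, was listed at 11.5 FPKM in LPS 3 and at 0 in the other 5 libraries, so its group mean rests on that library alone.

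For a pair of shorter CD44 transcripts all LPS values lay below all controls. CD44-211, with 9 exons and an early end, stood at 2.23, 8.20 and 11.1 FPKM in controls, then 0.390, 0.253 and 0.977 FPKM with LPS (log2 change −2.71, SE 0.61, limma adjusted p = 0.452). CD44-222, with 2 exons, stood at 6.03, 7.04 and 12.6 FPKM in controls, then 3.34, 2.19 and 0.824 FPKM (log2 change −1.85, SE 0.48, limma adjusted p = 0.556). As a share of CD44 FPKM, CD44-222 was 20.1%, 22.6% and 21.6% in controls and 5.19%, 6.79% and 2.10% with LPS. Neither passed the threshold over 20563 tested transcripts. Both overlap CD44-201 in the genome, and the sources used here do not state how fragments were divided between overlapping transcripts.

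Of the 65 protein-coding transcripts listed for the 10 genes, 23 reached the level for testing and 0 passed the adjusted threshold by limma, against 0.126% of all tested transcripts. At an unadjusted p under 0.05 there were 4 of 23, ESM1-202 and GPC1-201 higher and CD44-211 and CD44-222 lower, against 6.44% of tested transcripts (3.24% higher and 3.2% lower). The groups did not overlap for 5 of 23, these 4 and HYAL2-207, against 13.8% of tested transcripts (6.69% with LPS above and 7.07% below). Of the 23, 14 had a positive log2 change, against 49.5% of tested transcripts. In SDC3 and SDC1 the split between coding transcripts differed widely among libraries. SDC3-202 took 50.4% to 98.2% of its gene in controls and 54.9% to 98.1% with LPS, and SDC1-201 took 25.6% to 100% and 45.7% to 69.7%.

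**Figure D3:**
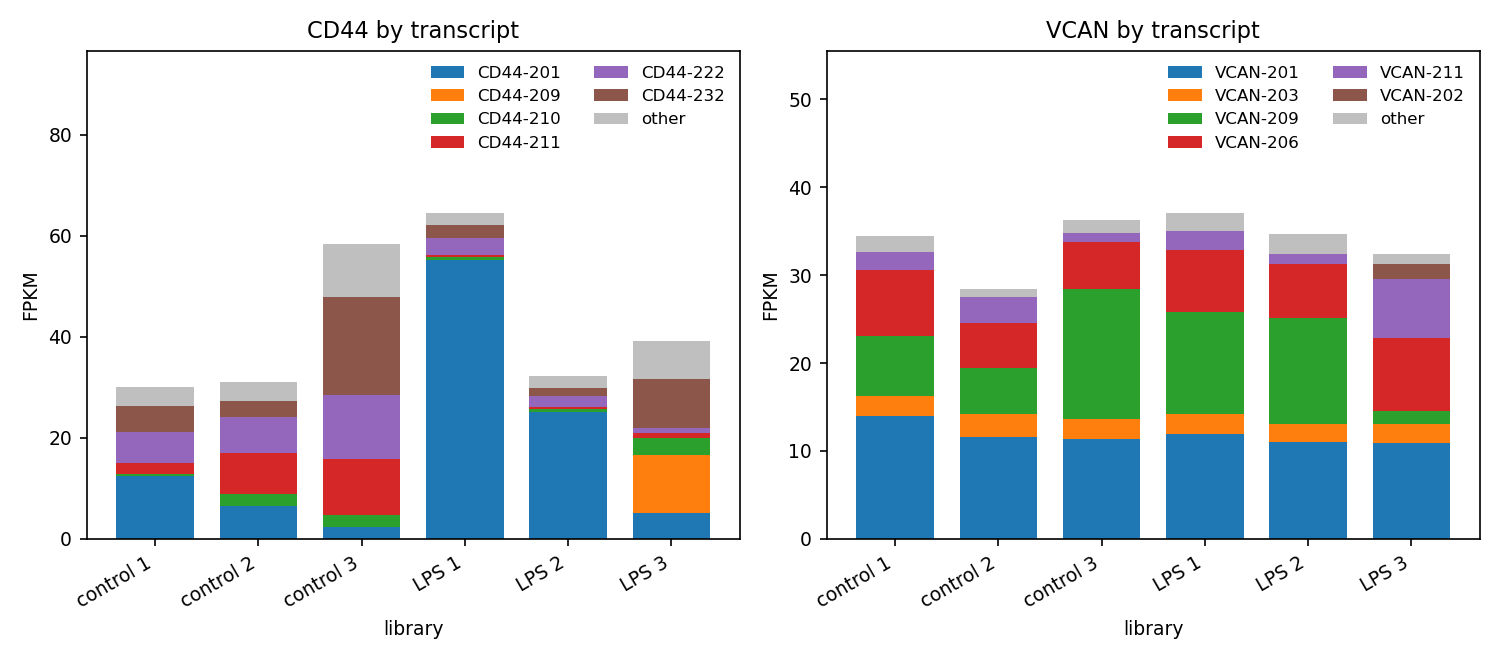
FPKM of CD44 (left) and VCAN (right) in each library, stacked by transcript; bars start at 0 and other transcripts are grey. CD44-201 fills most of the LPS 1 and LPS 2 bars and little of control 3, CD44-209 appears in LPS 3 alone, and VCAN-201 keeps a similar height of 10.9 to 14.0 FPKM in all 6.

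Further genes of the coat were read from 7 pathway lists, and in each of them 0 genes passed the adjusted threshold. Of 26 proteoglycan core protein genes, 21 were tested, and 14 of these had log2 changes above 0 (median 0.19), against 47.8% of all tested genes. By unadjusted p under 0.05, 6 were higher and 2 lower, against 5.13% and 5.26% of all tested genes, and the list includes 8 of the 10 genes above. The matrix heparan sulfate proteoglycan AGRN stood at 27.6 ± 1.91 FPKM in controls and 39.1 ± 1.28 FPKM with LPS (SD, n = 3 each; log2 change 0.50, limma adjusted p = 0.173). COL18A1, the collagen that yields endostatin, stood at 79.0 ± 4.48 and 114 ± 17.0 FPKM (log2 change 0.52, limma adjusted p = 0.267). The keratan sulfate proteoglycan LUM, which is also on the fibroblast marker list, stood at 21.5 ± 4.65 and 12.8 ± 2.78 FPKM (log2 change −0.72). The most abundant core protein was SRGN, the granule proteoglycan serglycin, at 410 ± 23.2 and 379 ± 35.1 FPKM.

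Of 15 linker and precursor genes, all tested, 9 had a positive log2 change (median 0.04), against 47.8% of all tested genes. By unadjusted p under 0.05, 0 were higher and 3 lower, against 5.13% and 5.26% of all tested genes. PAPSS2, which makes the sulfate donor, stood at 84.9 ± 7.11 and 66.3 ± 3.70 FPKM (log2 change −0.35, limma adjusted p = 0.318), and UGP2, which makes UDP-glucose, at 41.4 ± 4.86 and 32.8 ± 0.704 FPKM. B4GALT7, a linker galactosyltransferase, stood at 11.3 ± 2.10 and 13.8 ± 5.37 FPKM and SLC35B3, a sulfate donor transporter, at 3.78 ± 1.31 and 2.27 ± 0.416 FPKM. Of 21 heparan sulfate synthesis genes, 11 were tested, with 8 positive and a median of 0.20. By unadjusted p under 0.05, against the same shares of all tested genes, 0 were higher and 1 gene was lower. That gene was EXTL2, a transferase related to the exostosins, at 11.3 ± 1.46 and 7.81 ± 0.628 FPKM (log2 change −0.50). NDST1, which starts chain sulfation, was the most abundant at 62.9 ± 8.23 and 73.1 ± 16.8 FPKM. NDST2, GLCE and HS6ST1, which modify the chain, had log2 changes of 0.51, 0.35 and 0.27, with limma adjusted p from 0.617 to 0.762.

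Of 16 chondroitin and dermatan sulfate genes, 15 were tested, with 7 positive (47.8% of all tested genes) and a median of −0.05. By unadjusted p under 0.05, 0 were higher and 2 lower, against 5.13% and 5.26% of all tested genes. CHST7, a chondroitin sulfotransferase, stood at 9.02 ± 0.417 and 7.14 ± 0.473 FPKM (log2 change −0.32, limma adjusted p = 0.386). CHPF, a chain polymerizing factor and the most abundant, stood at 97.4 ± 9.46 and 94.3 ± 8.76 FPKM, and CHST11, CHST15 and CSGALNACT1 had log2 changes of 0.52, −0.31 and −0.34. The other gene lower by unadjusted p was the chain-starting CSGALNACT2, at 12.9 ± 0.789 and 10.7 ± 0.435 FPKM, named after its values were seen.

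Of 23 genes of hyaluronan synthesis, turnover and binding found, 15 were tested and 11 had a negative log2 change, with a median of −0.07. The other 4 were positive, against 47.8% of all tested genes. By unadjusted p under 0.05, 1 was higher and 2 lower, against 5.13% and 5.26% of all tested genes. This list holds HAS2, HYAL2, CD44 and VCAN too. STAB1, a scavenger receptor that can bind hyaluronan, stood at 9.79, 9.33 and 10.98 FPKM in controls and 14.8, 14.2 and 15.6 FPKM with LPS (log2 change 0.54, limma adjusted p = 0.193). The lymphatic hyaluronan receptor LYVE1 stood at 9.31, 8.66 and 7.97 FPKM in controls and 4.06, 6.95 and 2.30 FPKM with LPS (log2 change −1.0, limma adjusted p = 0.351). For both the groups did not overlap, in opposite directions. CEMIP, a hyaluronan-degrading protein, stood at 3.85 ± 0.667 and 2.73 ± 0.480 FPKM (log2 change −0.42). HYAL3, a hyaluronidase paralog, stood at 3.61 ± 1.77 and 1.98 ± 1.34 FPKM. HAS2 was the main synthase, since HAS1 stood at 0.120 to 1.20 FPKM and HAS3 at 0.265 to 0.616 FPKM over the 6 libraries.

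Of 24 shedding and degradation genes, 17 were tested, with 10 positive (47.8% of all tested genes) and a median of 0.11. By unadjusted p under 0.05, 1 was higher and 3 lower, against 5.13% and 5.26% of all tested genes. The 17 include THRB (log2 change −0.10), a thyroid hormone receptor that is not a shedding or degrading enzyme. The versican-cleaving protease ADAMTS4 stood at 11.03 ± 0.691 and 15.6 ± 0.933 FPKM (log2 change 0.48, limma adjusted p = 0.220). ADAMTS1, which also cleaves versican, stood at 41.0 ± 7.68 and 25.2 ± 5.72 FPKM (log2 change −0.70, limma adjusted p = 0.324). The sulfatase SULF1, which removes sulfate from heparan chains, stood at 32.6, 36.8 and 30.6 FPKM in controls and 29.6, 20.3 and 13.7 FPKM with LPS (log2 change −0.70, limma adjusted p = 0.402). ADAM15 stood at 43.8 ± 8.37 and 54.5 ± 2.04 FPKM, and the protease inhibitor TIMP1, the most abundant, at 1979 ± 95.6 and 1861 ± 262 FPKM. ADAMTS5, named after its values were seen, stood at 1.34 ± 0.423 and 0.627 ± 0.126 FPKM. The heparan sulfate-cutting enzyme HPSE stood at 2.03 ± 0.648 and 2.33 ± 0.00411 FPKM, and the sheddases ADAM17 and ADAM10 at 12.4 ± 1.48 and 15.6 ± 1.43 FPKM in controls and 12.2 ± 1.10 and 15.1 ± 0.821 FPKM with LPS. These 3 were chosen after values were seen, for their known roles.

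Of 9 sialomucins and other surface glycoproteins found, 7 were tested, with 3 positive (47.8% of all tested genes) and a median of −0.09. By unadjusted p under 0.05, 1 was higher and 1 lower, against 5.13% and 5.26% of all tested genes. PODXL, the podocalyxin of the luminal surface, stood at 34.9, 43.7 and 30.8 FPKM in controls, then 55.1, 56.7 and 71.9 FPKM with LPS, without overlap (log2 change 0.75, limma adjusted p = 0.216). CD34, CD164 and ICAM2 had log2 changes of −0.32, −0.19 and 0.15. EMCN, named after its values were seen and the one lower by unadjusted p, stood at 1.45, 1.70 and 1.13 FPKM in controls and 0.615, 0.380 and 0.189 FPKM with LPS, also without overlap (log2 change −1.12, limma adjusted p = 0.193).

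**Figure D4:**
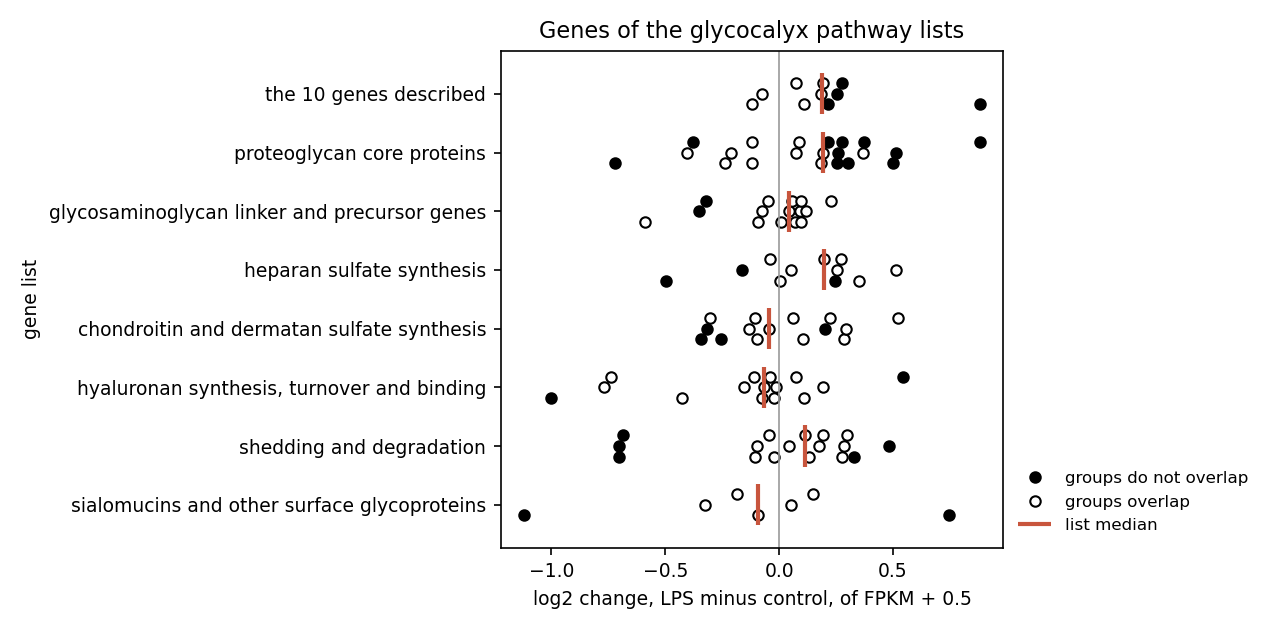
Log2 change of FPKM + 0.5, LPS minus control, of each tested gene in the 10 genes and the 7 pathway lists; filled points are genes whose 3 LPS and 3 control values do not overlap, and red bars are list medians. Medians lie between −0.09 (sialomucins) and 0.20 (heparan sulfate synthesis), with ESM1 the rightmost point at 0.88.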

How the data were processed

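Gene and transcript levels in 3 control and 3 LPS libraries were taken from tables of FPKM computed by the authors. HISAT2 and StringTie are named without version or role, with the mouse build mm9, per the submitters' processing notes, whereas the deposited tables use human Ensembl gene names and positions that match GRCh38. The sources used here give no counting options or strand. At most 31.0% of low values per library were whole multiples of a common step (tolerance 0.02), so depth is unknown.

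Tests used limma 3.58.1 (R 4.3.3) on log2(FPKM + 0.5) for every gene or transcript whose mean reached 0.5 FPKM, group only, with eBayes and a trend, two-sided, adjusted by Benjamini-Hochberg within each table, at a threshold of 0.05. The log2 scale understates changes of low genes. The procedure was run on simulated data with independent normal noise around the real means, as the model itself assumes. That run does not cover single libraries that stand apart or the division of fragments between transcripts. Sums and ratios were compared by exact permutation. Gene list members were named if called, otherwise up to 4 with the largest log2 change and at least 1 FPKM, and the most abundant; some genes on the lists are not reported here. The members and lists were chosen with earlier results of these data known. Alternatives were pseudocounts of 0.1 and 1, other filters, rescaling, library weights, robust eBayes, a replicate block and leaving out each library.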

Additional observations from a re-analysis of the deposited data

How the results depend on the processing

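By limma, 0 of the 10 genes and 0 of their transcripts passed the adjusted threshold under every alternative run. By unadjusted p under 0.05, 2 genes passed as reported (ESM1 and GPC1), 3 with library weights (SDC3 too), 1 (ESM1) without any one of the controls or without LPS 1, and 2 without LPS 3, where they were ESM1 and SDC3. ESM1 kept a positive log2 change, from 0.79 to 1.02, with an adjusted p from 0.161 to 0.462, and GPC1 one from 0.18 to 0.24, with an adjusted p from 0.380 to 0.662. Leaving out single libraries gave log2 changes of −0.028 to 0.144 for VCAN (lowest without control 2), −0.201 to 0.011 for HAS2 (highest without control 3) and −0.091 to 0.499 for CD44 (lowest without LPS 1). No other gene of the 10 changed sign under the alternatives run.

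Over all tested protein-coding genes the count called was 7, with 1254 by unadjusted p under 0.05. It was 0 without a filter on low values (1563 unadjusted, limma), and between 0 and 8 with single libraries left out, 0 without control 2 (1046 unadjusted) and without LPS 2 (1213 unadjusted). For transcripts the count was 26, with 15 without a filter and 28 to 53 with single libraries left out. With replicate number as a block the counts were 0 genes (1451 unadjusted, limma), so that ISG15 and MX1 were not called, and 0 transcripts (1171 unadjusted). Across genes, deviations of same-numbered libraries correlated weakly, at 0.0175, 0.105 and 0.0605. Every library but control 1 correlated best with its own number, a hint from the data and not from the design. The pattern did not hold across transcripts, where the same correlations were −0.0068, 0.0209 and 0.009. There LPS 1 correlated best with control 3, and LPS 3 with control 1. The cause of these shifts was not tested.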
